A study of Mus musculus with 6 samples.

Results

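The Cyp4a genes of the mouse encode cytochrome P450 enzymes that hydroxylate fatty acids at the omega carbon, and their transcripts were followed in the livers of alcohol-treated mice. Members were the array probes whose gene name begins with Cyp4a, and every probe was kept apart. This rule found 6 probes for 3 gene names, out of 41174 probes for 27962 gene names on the array. Cyp4a10 had 3 probes, Cyp4a14 had 1 and Cyp4a12 had 2. Both dyes gave a signal well above background for all 6 probes on every one of the 6 arrays, none was saturated on any array, and all 6 passed the filter on dim probes. The family was chosen by its alcohol over control ratios on these same arrays, so the ratios and levels of its probes are given as a description, with no test.

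Male 129/Sv mice, 6 to 8 weeks old at the start, received the Lieber-DeCarli liquid diet with 4% ethanol for 1, 2 or 4 months, and the control mice received an isocaloric liquid diet in which maltose dextran replaced the ethanol. Both groups had first been kept on the control liquid diet. Liver RNA of 6 mice was pooled in equal amounts for each diet and month, and the alcohol pool and the control pool of a month were hybridized together on 2 two-color arrays with the dyes Cy5 and Cy3 exchanged. The study asked which liver transcripts alter early in chronic alcohol exposure, and it holds 6 pools, 1 per diet and month, so that the SD over 2 arrays given below is technical and the spread between mice was not measured.

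Omega-hydroxylation turns a fatty acid into a dicarboxylic acid precursor and is a side route to mitochondrial beta-oxidation in liver and kidney. Its products are shortened further in peroxisomes. The Cyp4a genes are classical targets of PPAR-alpha, a nuclear receptor that binds fatty acids and fibrate drugs, pairs with a retinoid X receptor on direct repeats of a half-site and raises the transcription of fatty acid oxidation genes. Cyp4a10 and Cyp4a14 are the inducible members in mouse liver, and Cyp4a12 enzymes are male-predominant and metabolize arachidonic acid.

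The probes named Cyp4a10 were A_52_P257774 and A_52_P6588, both listed with NM_010011, and A_52_P340136, listed with X71478. The Cyp4a14 probe A_51_P238576 was listed with NM_007822, and both Cyp4a12 probes, A_51_P433360 and A_52_P44914, with NM_177406, which is the accession of Cyp4a12a in RefSeq. A further pair of probes, A_51_P254895 and A_52_P218449, carried the name BC013476 and the accession NM_201640 of Cyp4a31, so the rule left them out and they are given for comparison. In the RefSeq gene order of the assembly GRCm38.p6, 10 entries named Cyp4a follow each other along one chromosome, with Cyp4a12a, Cyp4a14, Cyp4a10 and Cyp4a31 in that order, and the other 6 entries have no probe matched here. Members of the family are close copies of each other, and how far a probe of one also binds transcripts of another was not tested.

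Cyp4a10 and Cyp4a14 transcripts were higher in the alcohol pool than in the control pool of the same month on every array. In the mean of the 2 arrays the ratio was largest at 1 month for Cyp4a14 and for all 3 Cyp4a10 probes, between 2.15-fold and 5.47-fold. The Cyp4a12 probes gave lower ratios than these and lay on different sides of 0 at 1 and 2 months. In a pool of liver RNA, more transcript per cell and more cells that carry it cannot be told apart.

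For Cyp4a14, the processed signal at 1 month was 18350 in the alcohol pool against 3517 in the control pool with the alcohol pool in Cy5, and 19486 against 3442 with the dyes exchanged. The log2 alcohol over control ratios of Cyp4a14 on these 2 arrays were 2.38 and 2.50, a mean of 2.44 ± 0.08 (SD, 2 arrays) or 5.43-fold. At 2 months they were 1.58 and 2.04, a mean of 1.81 ± 0.33 or 3.50-fold. The 2 arrays of each month thus differed far less than the ratio itself. At 4 months the ratios of Cyp4a14 were 1.25 and 1.08, a mean of 1.16 ± 0.12 or 2.24-fold, and each month's pair of values lay below that of the month before.

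For Cyp4a10, probe A_52_P257774 gave log2 ratios of 2.50 and 2.41 at 1 month (mean 2.45 ± 0.07, 5.47-fold), with the array that had the alcohol pool in Cy5 first. It gave 1.05 and 1.71 at 2 months (1.38 ± 0.47, 2.60-fold) and 1.1 and 1.36 at 4 months (1.23 ± 0.19, 2.35-fold). All 6 values were above 2-fold, and the 4 values of the later months did not reach those of 1 month. The second probe with the same accession, A_52_P6588, gave 2.36 and 2.30 at 1 month (2.33 ± 0.05, 5.03-fold), 1.30 and 2.39 at 2 months (1.85 ± 0.77, 3.60-fold) and 1.61 and 2.82 at 4 months (2.21 ± 0.86, 4.64-fold). Its values at 2 and 4 months overlapped those of 1 month, so the smaller ratio after 1 month seen with A_52_P257774 was not present on every array for this probe.

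The third Cyp4a10 probe, A_52_P340136, gave 1.00 and 1.21 at 1 month (1.11 ± 0.15, 2.15-fold), 0.10 and 1.25 at 2 months (0.67 ± 0.81, 1.59-fold) and 0.23 and 1.13 at 4 months (0.68 ± 0.64, 1.60-fold). At 2 and 4 months its ratio was close to 0 on the array with the alcohol pool in Cy5 and past 2-fold on the other. It was lower than A_52_P257774 on 6 of 6 arrays, by means of 1.35, 0.70 and 0.55 at the 3 months, and lower than A_52_P6588 on 6 of 6 arrays, by means of 1.23, 1.17 and 1.53. This probe is listed with another accession than the other 2, and the part that its sequence plays was not tested. At 2 months, with the alcohol pool in Cy5, its processed signal was 60885 in the alcohol pool and 56799 in the control pool. The part of so high a signal in its ratios was not tested.

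**Figure D1:**
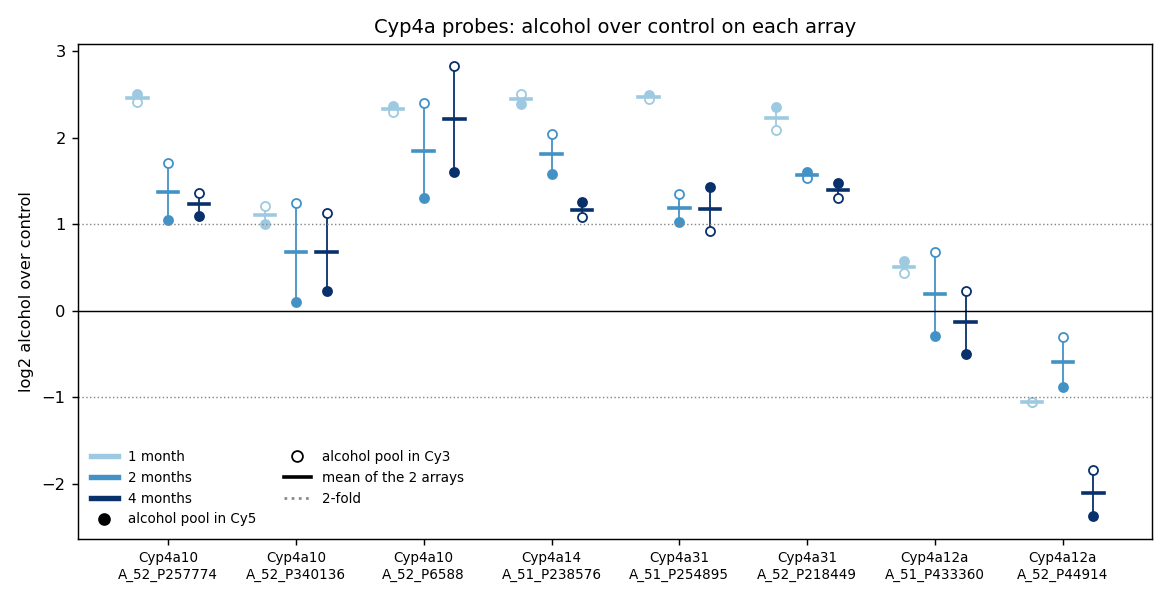
Log2 alcohol over control of each Cyp4a probe on each of the 6 arrays, by month, with filled points for the alcohol pool in Cy5, open points for Cy3, a bar at the mean of the 2 arrays and dotted lines at 2-fold. Cyp4a14 and the Cyp4a10 and Cyp4a31 probes lie above 0 on all 6 arrays, from 0.10 to 2.82, whereas the Cyp4a12a probe A_52_P44914 lies below 0 on all 6.

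The Cyp4a12 probes disagreed. At 1, 2 and 4 months in turn, A_51_P433360 gave log2 ratios of 0.57 and 0.44, of -0.29 and 0.68, and of -0.49 and 0.22, with means of 0.50, 0.19 and -0.13. A_52_P44914 gave -1.05 and -1.06, then -0.88 and -0.31, then -2.37 and -1.84, with means of -1.05, -0.59 and -2.11. The first probe was past 2-fold on none of the 6 arrays, and the second was at least 2-fold lower in the alcohol pool on 4 of 6. The difference between the 2 probes was 1.56, 0.78 and 1.97 at the 3 months and had the same sign on 6 of 6 arrays. Both carry the same accession, so no single direction is given for Cyp4a12a.

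Both Cyp4a31 probes resembled Cyp4a10 and Cyp4a14. The log2 ratio of A_51_P254895 averaged 2.47 ± 0.03 at 1 month, 1.19 ± 0.22 at 2 months and 1.18 ± 0.36 at 4 months. That of A_52_P218449 averaged 2.22 ± 0.19, 1.56 ± 0.05 and 1.39 ± 0.12. Cyp4a31 lies beside Cyp4a10, and the ratio of both probes was largest at 1 month in either dye orientation.

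At 1 month, 4 of the 6 Cyp4a probes were at least 2-fold higher in the mean of the pair, against 0.158% of the 37922 probes tested, and 1 was at least 2-fold lower, against 0.0949%. At 2 months 3 were higher, against 0.243%, and 0 were lower, against 0.182%. At 4 months 3 were higher, against 0.464%, and 1 was lower, against 0.338%. Of the 4 probes at 1 month, 3 were at least 2-fold higher on both arrays, and A_52_P340136 fell just short on one. Ratios above 0 on all 6 arrays were given by 4 of the 6 Cyp4a probes and by 1.49% of the probes tested, and ratios below 0 on all 6 by 1 of the 6 and by 2.38%. Since these ratios chose the family, the counts are a description and nothing is read from them.

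The ratios were then set beside the level of each transcript in each pool. Levels are log2 signals of a single channel relative to the 75th percentile of that channel, averaged over both dyes, and a level of one probe cannot be set against that of another. The Cyp4a14 level in the control pools of 1, 2 and 4 months was 1.71, 2.99 and 3.42. In the alcohol pools it was 4.15, 4.79 and 4.58. The lowest alcohol pool thus lay above the highest control pool. The control level was higher than at 1 month by 1.28 at 2 months and by 1.71 at 4 months. The alcohol level was higher by 0.64 and 0.44. Under this scaling the smaller ratio at the later months thus went with a higher control level and not with a lower alcohol level. The processed alcohol signal at 4 months was 53618 in Cy5 and 57133 in Cy3. Whether so high a signal narrows the ratio or holds back the alcohol level was not tested.

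For Cyp4a10 probe A_52_P257774, in the same order of months, the control pools had levels of 0.29, 2.53 and 2.16 and the alcohol pools had levels of 2.74, 3.90 and 3.39. The groups did not overlap, but the alcohol pool of 1 month and the control pool of 2 months lay close together. The share of all probes tested whose groups do not overlap was not counted, so nothing is read from the overlap of any probe. The control level was higher than at 1 month by 2.24 at 2 months and by 1.87 at 4 months. The alcohol level was higher than at 1 month by 1.16 and 0.65. With the control pool in Cy3 the differences of the control level were 2.26 and 1.73, and with Cy5 they were 2.22 and 2.02.

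Probe A_52_P6588 of Cyp4a10 had levels of -1.25, 0.55 and -0.35 in the control pools and of 1.08, 2.39 and 1.86 in the alcohol pools, again without overlap. Probe A_52_P340136 had levels of 3.82, 4.87 and 3.95 in the control pools and of 4.93, 5.54 and 4.63 in the alcohol pools, and here the control pool of 2 months lay above the alcohol pool of 4 months. For the Cyp4a12 probes both groups overlapped. A_51_P433360 had 1.99, 3.47 and 2.98 in the control pools and 2.49, 3.65 and 2.84 in the alcohol pools. A_52_P44914 had 2.07, 3.12 and 2.41 in the control pools and 1.01, 2.52 and 0.30 in the alcohol pools.

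**Figure D2:**
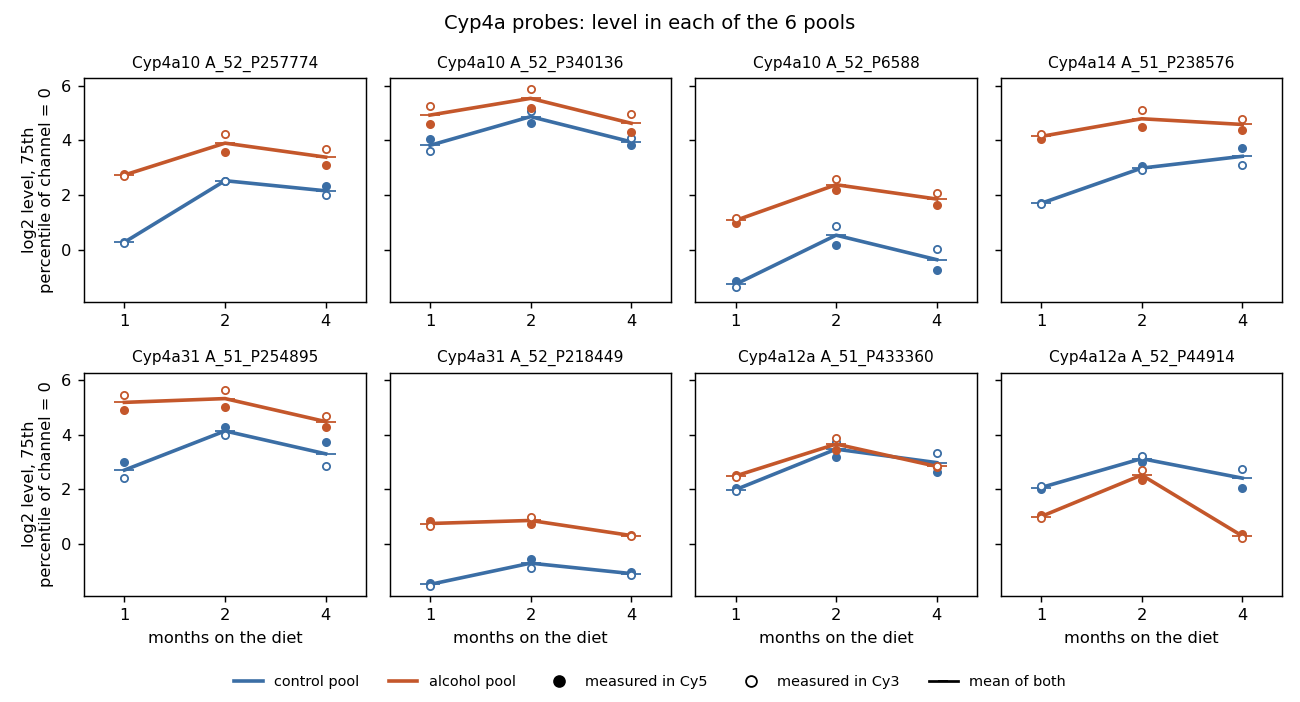
Log2 level of each Cyp4a probe in the control pools (blue) and alcohol pools (red) by months on the diet, with filled points for Cy5, open points for Cy3, a line through the mean of both, and 0 at the 75th percentile of a channel. The control line of Cyp4a10 A_52_P257774 climbs from 0.29 at 1 month to 2.53 at 2 months, and that of Cyp4a14 from 1.71 to 3.42 at 4 months, while their alcohol lines stay above them.

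Relative to 1 month, the control level was at least 2-fold higher at 2 months for 6 of the 6 Cyp4a probes and for 9.42% of the probes tested. At 4 months it was at least 2-fold higher for 2 of the 6, Cyp4a14 and A_52_P257774, and for 9.44% of the probes tested. A control level higher by at least as much as that of A_52_P257774 was found for 1.62% of the probes tested at 2 months and 2.73% at 4 months. Both counts depended on the scaling. With loess and Aquantile normalization the count at 2 months was 2 of the 6, with all 6 still above 1 month, and from the Cy5 channel alone it was 5 of the 6. At 4 months loess and Aquantile also gave 2 of the 6, but only 4 of the 6 lay above 1 month at all, and from the Cy5 channel alone 5 of the 6 did. Scaling to the median of each channel, or the Cy3 channel alone, gave 4 of the 6 at 4 months, and no further scaling gave 6 of the 6. Under the 75th percentile scaling the median of all tested probes shifted by -0.38 at 2 months and -0.40 at 4 months, so the differences are larger by about that amount relative to the median probe. One slide carried the arrays of 1 month and a second slide all later arrays, so slide, age of the mice and time on the liquid diet cannot be told apart wherever 1 month is set against a later month.

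The pathway around Cyp4a was examined with 6 lists of genes, of which 119 were tested. Past 2-fold in the mean were 3 genes higher and 1 lower at 1 month, 2 higher and 0 lower at 2 months, and 3 higher and 2 lower at 4 months. Of all probes tested, 0.158%, 0.243% and 0.464% were higher at 1, 2 and 4 months, and 0.0949%, 0.182% and 0.338% were lower. Ratios above 0 on all 6 arrays were given by 11 of the 119, against 1.49% of all probes tested. Those below 0 on all 6 were given by 3, against 2.38%. The lists were chosen with earlier results of these data known, so nothing is read from these counts. With limma over the 3 monthly ratios, 0 of the 37922 probes tested passed an adjusted p of 0.05 (0%), the smallest adjusted p was 0.106, and 3028 probes had an unadjusted p under 0.05. The plain t-test without moderation also made 0 calls after adjustment, with 2247 unadjusted. None of the 119 pathway genes passed with limma, and 26 had an unadjusted p under 0.05.

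Ppara, which encodes PPAR-alpha, was within 2-fold on all 6 arrays. At 1, 2 and 4 months its log2 ratio was 0.10 ± 0.02, 0.01 ± 0.54 and -0.47 ± 0.54, and ratios of the genes named next are given in the same order. Of the 16 genes of the receptor and its partners, which include the retinoid X receptors and coactivators, 15 stayed within 2-fold at every month, and the list medians were 0.02, 0.01 and 0.03, against 0.00, 0.01 and -0.01 for all probes tested. The exception was Lpin1, a phosphatidate phosphatase that also acts as a coactivator of PPAR-alpha. Its ratios were -1.07 ± 0.24, 1.48 ± 0.57 and 0.56 ± 0.97, the first 2 on opposite sides of 0.

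Among the other Cyp4 genes, 9 of the 12 listed were tested and 0 were past 2-fold at any month, with medians of 0.18, -0.07 and -0.02. Cyp4f14, a leukotriene omega-hydroxylase of liver, had ratios of -0.11 ± 0.21, -0.29 ± 0.59 and -0.10 ± 0.75. Of the 14 genes for microsomal electron transfer and the later steps of omega oxidation, the medians were 0.07, -0.10 and 0.08. Por, which passes electrons from NADPH to the P450 enzymes, had 0.28 ± 0.30, 0.05 ± 0.17 and 0.37 ± 0.19. Cyp2e1, the ethanol-oxidizing P450 that also hydroxylates fatty acids at the carbon next to the omega carbon, had 0.07 ± 0.06, 0.08 ± 0.58 and 0.19 ± 1.14, and after 4 months its arrays gave 0.995 and -0.62. Adh4, an alcohol dehydrogenase that also takes omega-hydroxy fatty acids, was the member past 2-fold, with -0.17 ± 0.05, -0.55 ± 0.30 and -1.24 ± 0.33. Aldh3a2, which oxidizes the fatty aldehyde of the pathway and was picked out after its values were seen, was above 0 on 6 of 6 arrays with 0.55, 0.16 and 0.35.

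Peroxisomal beta-oxidation genes were above 0 at 1 month for 18 of 24, with a median of 0.22. At 2 months 16 of 24 were above 0 with a median of 0.04, and at 4 months 13 of 24 with a median of 0.07. Both arrays lay in one direction for 18, 13 and 12 of the 24 at 1, 2 and 4 months. Ehhadh, the bifunctional enzyme of the pathway and a classical PPAR-alpha target, had ratios of 0.68 ± 0.01, 0.50 ± 0.36 and 0.52 ± 0.23 and was above 0 on 6 of 6 arrays (limma, adjusted p = 0.601). Abcd2, a peroxisomal importer of very long chain fatty acids, had 1.40 ± 0.27, 0.89 ± 0.48 and 1.70 ± 0.32, also on 6 of 6 arrays (limma, adjusted p = 0.601). Acaa1b, the peroxisomal thiolase, had 0.50 ± 0.17, 0.04 ± 0.39 and 0.53 ± 0.64.

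Acot3, a peroxisomal acyl-CoA thioesterase, had 1.14 ± 0.17, 0.24 ± 0.38 and -0.10 ± 0.19. Nudt7, which cleaves coenzyme A in peroxisomes, was lower, with -0.40 ± 0.60, -0.90 ± 0.08 and -1.08 ± 0.27. In this list Ehhadh, Acaa1a, Pex11a and Abcd2 were above 0 on all 6 arrays and Acox3 and Scp2 below 0 on all 6, and Acaa1a, Pex11a, Acox3 and Scp2 are named only after their values were seen.

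Mitochondrial beta-oxidation and ketogenesis genes were above 0 for 24 of 26 at 1 month with a median of 0.19, for 16 of 26 at 2 months with a median of 0.04 and for 17 of 26 at 4 months with a median of 0.09. Only 19, 7 and 7 of the 26 had both arrays in one direction at 1, 2 and 4 months. Cpt1a, which starts the mitochondrial route, had 0.05 ± 0.14, 0.28 ± 0.81 and -0.24 ± 0.74. Its ratios stayed within the spread of their arrays around 0 at 2 and 4 months. Acot1, a cytosolic acyl-CoA thioesterase kept in this list, was the one member past 2-fold, with 0.28 ± 0.14, 0.85 ± 0.41 and 1.05 ± 0.01 and values above 0 on 6 of 6 arrays (limma, adjusted p = 0.620).

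Of 31 other listed PPAR-alpha targets, 30 were tested, with medians of 0.02, 0.11 and 0.05. Vnn1, a pantetheinase, had 0.93 ± 0.21, 0.60 ± 0.50 and 1.79 ± 0.55 and was above 0 on 6 of 6 arrays (limma, adjusted p = 0.620). Cd36, a fatty acid transporter of the cell surface, had 1.36 ± 0.01 at 1 month but 0.25 ± 0.46 and 0.34 ± 0.40 later. Fgf21, a hormone that liver secretes in fasting, had -0.17 ± 0.09, 1.85 ± 0.22 and 0.78 ± 0.08. These 3 genes were each past 2-fold at a different month. Pdk4, an inhibitor of pyruvate dehydrogenase, had 0.86 ± 0.15 at 2 months and 0.84 ± 0.13 at 4 months, and in the control pool of 1 month it was not well above background. Angptl4, an inhibitor of lipoprotein lipase, had 0.01 ± 0.14, 0.34 ± 0.44 and 0.12 ± 0.70, and Plin2, a coat protein of lipid droplets, had 0.12 ± 0.04, 0.40 ± 0.64 and -0.49 ± 0.81.

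**Figure D3:**
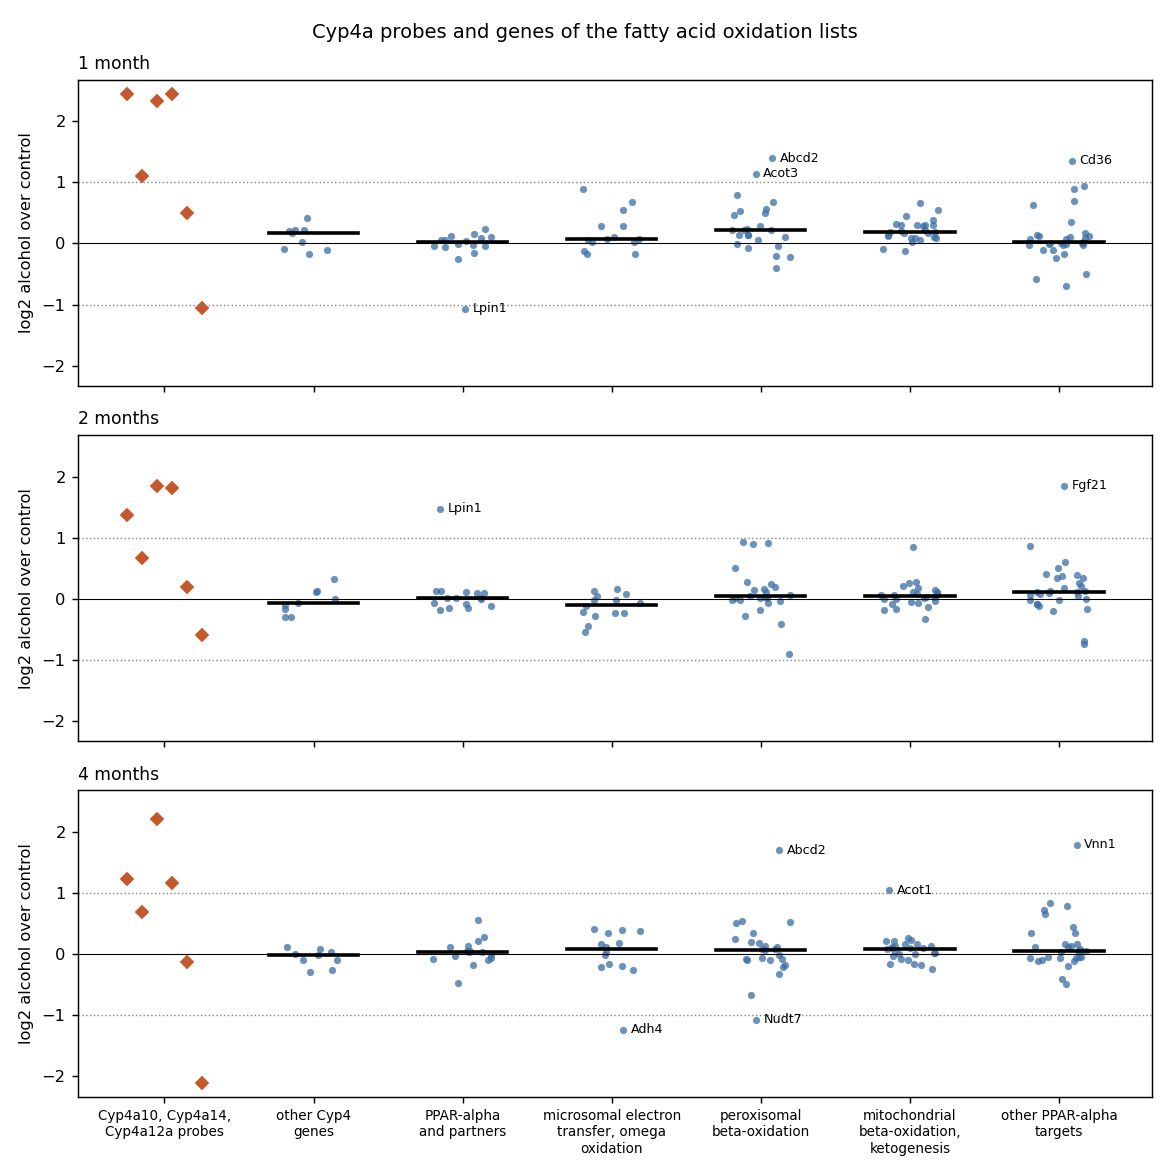
Mean log2 alcohol over control of the 6 Cyp4a probes (diamonds) and of the 119 genes of the 6 pathway lists (points) at 1, 2 and 4 months, with a black bar at each list's median, dotted lines at 2-fold and names for genes past 2-fold. The Cyp4a10 and Cyp4a14 diamonds lie between 1.11 and 2.45 at 1 month, and the list medians lie between -0.10 and 0.22 at every month.

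Fabp1, the abundant fatty acid binding protein of liver and a PPAR-alpha target, gave opposite ratios on the 2 arrays of each month, namely 0.39 and -1.56, then 0.18 and -1.68, then 1.29 and -1.42. Its means were -0.58, -0.75 and -0.07 (limma, adjusted p = 0.620). Promoters were searched for the 81 genes of the peroxisomal, mitochondrial and other PPAR-alpha target lists, of which 62 were matched, and no promoter was matched for Cyp4a10, Cyp4a14, Cyp4a12a or Cyp4a31. The Fabp1 promoter is shown because it was the one among those matched with a complete copy of the motif that PPAR-alpha and a retinoid X receptor bind. The motif searched was a direct repeat of the half-site AGGNCA with 1 base between the copies, on both strands, in windows from 250 bases before to 50 bases after a start site. It was found in 1 of the 78 promoters of these 62 genes and in 0.381% of all 32851 promoters of this length in the RefSeq table of GRCm38.p6. The stretch at chr6:71199772-71199864 on the plus strand, with the match at -67 to -55 from the start site in capitals as read on this strand, reads as follows.
Fabp1: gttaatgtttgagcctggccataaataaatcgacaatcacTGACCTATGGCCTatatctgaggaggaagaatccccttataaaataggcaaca

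The half-site AGGTCA alone, which can overlap the repeat, was found in 20 of the same 78 promoters and in 16.3% of all promoters. The letters TATAAA stood in 7 of the 78 and in 13.6% of all, and CCAAT in 33 of the 78 and in 37.4% of all. These matches are letters in a window and describe no binding in these livers.

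The probes whose level over the 6 pools was most like that of a member were found by Pearson's r, as a description over 6 pools that share arrays and slides. For Cyp4a10 the probe of highest signal, A_52_P340136, was compared with 12764 candidates. The most alike were Alas1 (r = 0.976), the first enzyme of heme synthesis, then Epha2 (0.970), a receptor tyrosine kinase, Slc22a5 (0.941), a carnitine transporter, Fmo2 (0.938), a flavin monooxygenase, and Cyp4a31 (0.932). Alas1 had log2 ratios of 1.16, 0.85 and 0.61 at the 3 months, and Slc22a5 of 0.58, 0.27 and 0.50. These neighbours belong to A_52_P340136 alone. Its r was 0.83 with A_52_P257774 and 0.89 with A_52_P6588, whose own neighbours were not searched.

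For Cyp4a14, 12766 candidates were compared. The most alike was a probe that the array names NAP026914-1, with no gene symbol (r = 0.99), followed by Ehhadh (0.978), Cyp4a10 probes A_52_P257774 (0.956) and A_52_P6588 (0.933), and Adam11 (0.908). The log2 ratio of the NAP026914-1 probe was 3.01, 2.72 and 2.21 at the 3 months. Within the family, the r of Cyp4a14 with A_52_P340136 was 0.74, and with the Cyp4a12 probes 0.56 for A_51_P433360 and -0.41 for A_52_P44914. Cyp4a14 thus ran with 2 of the 3 Cyp4a10 probes more closely than with the third.

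**Figure D4:**
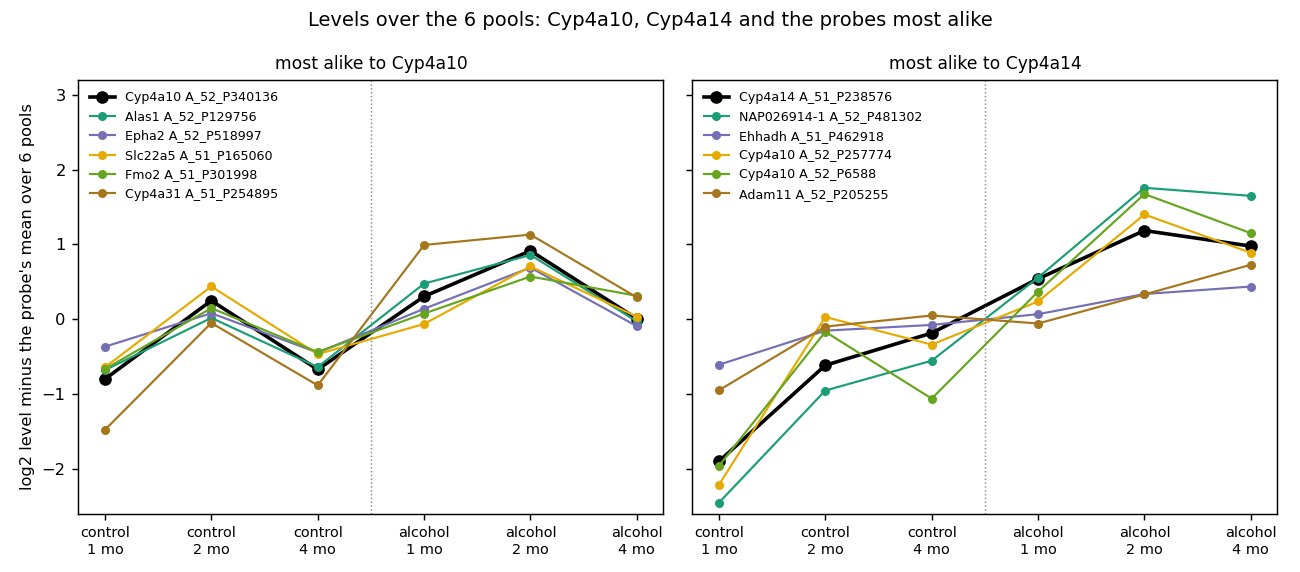
Log2 level minus the probe's own mean over the 6 pools, for Cyp4a10 A_52_P340136 and the 5 probes most alike (left) and for Cyp4a14 and the 5 probes most alike (right), with the control pools left of the dotted line. Ehhadh follows the order of Cyp4a14 closely (r = 0.978) over a smaller span.

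The tissue was checked against markers of liver and of other cells. Both dyes gave a signal well above background for all 9 hepatocyte markers on each array, and 0 were past 2-fold at any month in the mean of the 2 arrays. Only 2, 2 and 3 of the 9 had both arrays in one direction at the 3 months, and at 4 months the arrays gave 1.46 and -1.18 for Ahsg and 1.23 and -1.34 for Apoa1, both secreted plasma proteins. Over the 3 months their summed log2 level was 8.27, 8.19 and 7.07 in the control pools and 8.28, 8.17 and 7.19 in the alcohol pools. Under this scaling all 9 were lower in the control pool of 4 months than in that of 1 month. The 75th percentile that is subtracted was itself higher at 4 months than at 1 month in every channel. With the alcohol pool in Cy5 it was 10.10 at 1 month and 11.34 at 4 months in either dye, on the log2 scale. Whether the marker signals differed before this subtraction was not tested, so no fall of hepatocyte transcripts is read from these levels. Alb, the albumin gene, stood apart on 1 array of 4 months, at -1.88 in the control pool and -1.07 in the alcohol pool, against 4.20 and 4.57 on the other array. Without Alb the summed level of the other 8 was 8.11 and 8.08 at 1 month and 7.04 and 7.15 at 4 months. The part of this lower level in the control levels of the Cyp4a probes was not tested. Kidney proximal tubule also expresses Cyp4a genes, and its markers had medians of 0.05, 0.06 and -0.04, with 0 of 6 past 2-fold and a summed log2 level, control pool first, of 1.88 and 1.87 at 1 month, of 2.79 and 2.82 at 2 months, and of 3.06 and 3.02 at 4 months. Stellate cell, bile duct and adipocyte markers likewise had 0 genes past 2-fold at any month, and their medians lay between -0.03 and 0.22. Endothelial markers also had 0 of 5 past 2-fold, with medians of 0.41, -0.03 and 0.20, but at 1 month all 5 were above 0 on both arrays. Their summed level, control pool first, was then 1.52 and 1.92, and their part in the Cyp4a ratios was not tested. Lyve1, a hyaluronan receptor, had 0.95 ± 0.25 and Cdh5, a cadherin of endothelial junctions, 0.59 ± 0.11 at that month, and both are named only after their values were seen.

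Some markers of blood cells and of pancreas were past 2-fold in the mean of the 2 arrays. Kupffer cell and myeloid markers had medians of 0.28, -0.03 and 0.02, with Adgre1 at 1.23 ± 0.74 at 1 month as 1 of 6 past 2-fold, and their summed level at 1 month was 4.15 in the control pool and 4.30 in the alcohol pool. Among 3 red blood cell markers, Hba-a1 was at 1.51 ± 0.20 at 1 month and Alas2 at -2.0 ± 0.39 at 4 months, and the summed level at 1 month was 3.87 and 5.17. Among 7 pancreas acinar markers, all were above 0 at 4 months with a median of 0.66, Cela2a reached 3.75 ± 0.04 with both pools well above background on both arrays, and the summed level was 3.96 and 4.35. The summed acinar level was 3.56 and 3.53 at 1 month and 3.89 and 3.90 at 2 months. The part of these other cells in the Cyp4a ratios was not tested.

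The list of genes that are male-predominant in mouse liver holds Cyp4a12a, by probe A_51_P433360, which is left out of the counts here. Of the 8 other genes, 4, 2 and 5 were at least 2-fold lower in the alcohol pool at the 3 months, and of 11 female-predominant genes 3, 5 and 8 were at least 2-fold higher. Asking for 2-fold on both arrays left 4, 2 and 3 lower and 3, 2 and 8 higher. Of all probes tested, 0.0949%, 0.182% and 0.338% were at least 2-fold lower in the mean, and 0.158%, 0.243% and 0.464% higher. With limma, 0 genes of either list passed the adjusted p, and 7 of the male-predominant and 6 of the female-predominant genes had an unadjusted p under 0.05. The medians of the 8 male-predominant genes were -1.14, -0.45 and -1.15. Against their direction, Elovl3, a fatty acid elongase, had 0.58 at 2 months. As given above, the 2 Cyp4a12 probes disagreed. Among the 8, Hsd3b5, a steroid dehydrogenase, was at -2.93 ± 0.30, -2.04 ± 0.39 and -4.83 ± 0.07. Cyp7b1, an oxysterol hydroxylase, was at -1.55 ± 0.12, -1.42 ± 0.48 and -1.64 ± 0.75. The female-predominant genes had medians of 0.84, 0.87 and 2.08. Against their direction, Sult3a1, a sulfotransferase, had -0.47 at 1 month and -0.14 at 2 months, and Acot3 had -0.10 at 4 months. Cux2, a transcription factor, was also below 0 at 1 month, when neither pool was well above background for it. Sult3a1 and Cux2 are named only after their values were seen. Cyp2b13, a P450 of the Cyp2b family, was at 3.40 ± 0.29, 2.88 ± 0.21 and 2.36 ± 0.27, and Cyp3a16 at 0.84 ± 0.03, 1.31 ± 0.68 and 2.44 ± 0.88. The ratio of Cyp4a14 was largest at 1 month, as was that of Cyp2b13, whereas that of Cyp3a16 was largest at 4 months.

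Circadian clock genes had medians of -0.07, -0.13 and -0.13 over 14 genes, with Dbp, an output gene of the clock, at -0.27 ± 0.12, -1.0 ± 0.11 and -0.81 ± 0.30. Fasting-response genes had medians of 0.01, 0.28 and 0.47 over 11 genes. Igfbp1, which encodes an insulin-like growth factor binding protein, was at -0.23 ± 0.23, 1.97 ± 0.36 and 2.74 ± 0.22, the opposite order of months from Cyp4a14. The part of the sex-dependent, circadian and fasting programs in the Cyp4a ratios was not tested.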

How the data were processed

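Liver RNA pools of alcohol-treated and control mice were hybridized on Agilent 4x44K two-color arrays, 2 arrays per month with the dyes swapped. For each of the 6 arrays the authors deposited the scanner output of Feature Extraction 9.1.1.1, with the background-corrected and dye-normalized intensity of each channel, the log10 ratio of Cy5 over Cy3 and a modeled error score of that ratio. They also deposited a table of log10 alcohol over control ratios, whose column medians are 0 on every array and whose values matched those of the scanner files within 0.02 log2 for 100% of the 40929 single-spot probes. The genome build behind the probes is not given in the sources used here.

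Here each deposited log10 ratio was turned to alcohol over control, put on the log2 scale, and averaged over spots of a probe and over the pair of arrays, which is 1 replicate because both arrays hold the same RNA. Of 45018 spots 1639 were controls and were left out, and 0 carried an outlier flag. Levels are log2 processed intensities minus the channel's 75th percentile. Tested were the 37922 probes that any channel of any array placed well above background, and 27900 of all probes were so in both dyes on every array. Per array and channel, 73.1% to 90.3% of probes were well above background, and the small number of arrays limits the precision.

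With 1 pool per group and month, a probe was called at 2-fold. For the pathway lists, limma 3.58.1 in R 4.3.3 tested the 3 monthly ratios against 0 with Benjamini-Hochberg adjustment, and the script was tested on simulated data. The members, the 19 gene lists and the rule for named genes were chosen with earlier results of these data known. Named are every Cyp4a probe, 17 pathway genes (2 of them are not reported here), up to 5 genes per list past 2-fold at a month with both arrays in one direction, and the 5 probes most alike in level among those bright in both channels with a level span of at least 1 log2. The probe of highest signal stands for a gene. Symbols come from RefSeq accessions, matched for 22951 probes. Alternatives were normexp (offset 50) with loess, the deposited table, each array alone, error weighting, median centring, other thresholds, filters and scalings, and leaving out each month.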

Additional observations from a re-analysis of the deposited data

Results flagged for a closer look

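Among named genes that both dyes placed well above background on every array, pairs of months were noted in which both arrays of one month lay above 0 and both arrays of the other below 0, with at least one mean past 2-fold. No Cyp4a probe was among them. The log2 ratio was higher at 2 months than at 1 month by 2.02 for Fgf21, by 2.20 for Igfbp1 and by 2.55 for Lpin1, and it was higher at 4 months than at 1 month by 2.97 for Igfbp1 and by 2.61 for Sult3a1, a sulfotransferase. For Elovl3, a fatty acid elongase, the ratio at 4 months minus that at 2 months was -1.78. These differences between months were not tested, since each month has 1 pair of pools, and slide and month cannot be told apart where 1 month is compared with a later one.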

How the results depend on the processing

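With normexp and loess, all 18 monthly ratios of the 6 Cyp4a probes had the sign of the deposited ratios. The ratio at 1 month was -1.04 for Cyp4a12a A_52_P44914 and 2.20 for Cyp4a10 A_52_P6588, beyond the small SD of their pair. The higher control level after 1 month kept its direction for Cyp4a14 and for Cyp4a10 A_52_P257774 and A_52_P6588 under every scaling, but its size did not. Loess and Aquantile gave 0.89 for Cyp4a14 at 2 months and, for Cyp4a10 A_52_P257774, 1.95 at 2 months and 1.53 at 4 months. Scaling to the median of each channel gave 1.82 and 2.26 for Cyp4a14 and 2.77 and 2.42 for Cyp4a10 A_52_P257774 at 2 and 4 months. Without further scaling the values were 1.75 and 2.83 for Cyp4a14, 2.71 and 2.99 for A_52_P257774, and 2.01 at 4 months for A_52_P6588. The cause was not tested.

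Counts of probes past 2-fold moved with the threshold and the filter. Asking for 2-fold on each of the 2 arrays left 35, 36 and 85 probes higher and 16, 30 and 65 lower at 1, 2 and 4 months. A threshold of 1.5-fold gave 231, 529 and 955 higher and 246, 556 and 609 lower. Probes bright in both channels on all arrays gave 39, 40 and 68 higher, and 24 and 46 lower at 2 and 4 months. Normexp and loess gave 41 and 76 higher at 2 and 4 months and 21, 20 and 68 lower. With limma, 0 calls became 9 with normexp and loess and 6 among the bright probes, none of them a pathway gene, and leaving out 1 month gave from 0 to 0 calls. The monthly ratios already pair the 2 pools of a month, and with slide as a fixed block limma also made 0 calls, with 2706 probes at an unadjusted p under 0.05.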
